A study of Mus musculus with 18 samples.

Results

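The extracellular and feedback layer of Wnt signalling was examined in sorted cells of cultured mouse embryonic kidneys. It was taken as 56 genes chosen by their known role. They were 19 Wnt ligands, 12 receptors of the Frizzled and Lrp families, 9 genes of the R-spondin and Lgr axis with Znrf3 and Rnf43, 13 secreted antagonists and Kremen co-receptors, and the 3 feedback and transcription factor genes Axin2, Lef1 and Tcf7. All 56 were among the 78317 genes of the deposited table, and 40 of them were among the 16544 genes with enough counts to be tested.

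Wnt ligands are secreted, lipid-modified proteins that bind Frizzled receptors together with the co-receptor Lrp5 or Lrp6. In the canonical branch this stops the breakdown of beta-catenin, which then acts with Tcf and Lef factors on target genes, and other ligands act through cell polarity pathways without beta-catenin. Znrf3 and Rnf43 are membrane ubiquitin ligases that remove Frizzled from the cell surface, and R-spondins bound to Lgr receptors keep these ligases from doing so. In the mouse kidney, Wnt9b from the ureteric bud instructs the nephron progenitors around it, Wnt4 drives the progenitors that respond into an epithelial vesicle, Wnt11 marks the tips of the bud, and Wnt7b is needed for the medulla.

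The 18 bulk RNA-seq libraries came from embryonic day 14 kidneys of wild-type CD1, a mouse stock that is outbred, which were exposed for 4 hours to an AAV2 vector. In each vector the CAG promoter, which is active in most cell types, drove mCherry upstream of 2 shRNA cassettes in a mir30 backbone. The Mylk-shRNA vector targeted 2 regions of Mylk, the gene of myosin light chain kinase, the Rock1/2-shRNA vector targeted 1 region each of the kinase genes Rock1 and Rock2, and the scramble-shRNA control held rearranged Rock1 and Rock2 target sequences. After 72 hours in a gel of collagen I and Matrigel, the explants of a condition were combined, dissociated and sorted. The mCherry-positive fraction held the top 25% of cells by mCherry signal, and the mCherry-negative fraction held the bottom 50%. Every group was wild-type and every explant had met a vector, so the negative cells were exposed cells with low signal and not untreated ones. There were 6 groups of vector and fraction with 3 libraries each, 1 from each of 3 litters. A vector and a litter together make a culture, and each of the 9 cultures gave a positive and a negative library.

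Libraries held 3121624 to 12170830 estimated counts (median 7581392). Positive libraries were shallower, with a median of 4197000 against 10920000 in the negative ones, so members with few counts are known less well in the positive fraction. Mitochondrial transcripts took 3.95 to 9.16% of a library in litter 3 and 2.01 to 4.02% in litters 1 and 2. Markers of nephron progenitors summed to 1037 to 1405 CPM (a gene's share of a library's counts, scaled to a total of 1000000) in positive and 998.6 to 2037 CPM in negative libraries, so markers of embryonic kidney were present in both fractions. In the positive fraction Mylk was at 175 ± 10.7 CPM (SD, n = 3) under its own shRNA vector and at 196.6 ± 14.7 CPM under the control vector. With Rock1/2-shRNA, Rock1 was at 80.2 ± 4.90 CPM and Rock2 at 62.9 ± 6.02 CPM, against 85.6 ± 13.7 and 71.4 ± 9.12 CPM with scramble-shRNA. None of these 3 differences passed edgeR's quasi-likelihood test (adjusted p = 1 for each, n = 3 a group), so lower target RNA was not shown in these libraries. Counting by strand is not given in the sources used here. In the GENCODE annotation of GRCm38, opposite-strand transcripts share 34.5% of the exon bases of Lef1, 29% of Notum (with another such transcript over 9.32%), 17.8% of Fzd5, 17.3% of Sfrp2, 13.1% of Rspo3, 10.1% of Wnt11, 9.42% of Kremen2 and 3.47 to 5.12% of Wnt7b, Axin2 and Fzd6, and without strand such reads cannot be told apart.

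RefSeq promoter windows of the build GRCm38.p6, from 250 bases before to 50 bases after a gene's start, were found for 36 of the 56 members (44 windows, since some genes have several starts). They were searched on both strands for the Tcf/Lef motif, spelled CTTTGNN, where each N is A or T. At least 1 copy stood in 6 of the 44 windows, which belong to 6 members, and 16.9% of all 32851 windows of this length hold one. Among the 8 members that were higher in the positive fraction (described below), 5 had a window and 3 of these a copy. Among the 18 that were lower, 13 had a window and 2 of these a copy. These counts are per gene, while the 16.9% is per window. The 250 bases before the start are given for 4 members. Dkk1 and Wnt5b were higher in positive cells and carry 2 copies and 1 copy. Wnt11 and Axin2 were lower, and Wnt11 carries 1 copy, while Axin2, the usual reporter of canonical signalling, has none in this window. Each is written on the gene's own strand from 5′ to 3′ with the motif in capitals. The positions are chr19:30549497-30549746 (minus strand) for Dkk1, chr6:119449387-119449636 (minus strand, 1 of 3 windows) for Wnt5b, chr7:98834862-98835111 (plus strand, 1 of 2 windows) for Wnt11 and chr11:108920099-108920348 (plus strand) for Axin2.
Dkk1: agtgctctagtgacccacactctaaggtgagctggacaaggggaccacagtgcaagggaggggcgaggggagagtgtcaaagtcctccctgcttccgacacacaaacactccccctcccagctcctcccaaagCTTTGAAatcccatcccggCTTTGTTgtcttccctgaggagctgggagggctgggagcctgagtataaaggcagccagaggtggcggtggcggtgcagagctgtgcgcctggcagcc
Wnt5b: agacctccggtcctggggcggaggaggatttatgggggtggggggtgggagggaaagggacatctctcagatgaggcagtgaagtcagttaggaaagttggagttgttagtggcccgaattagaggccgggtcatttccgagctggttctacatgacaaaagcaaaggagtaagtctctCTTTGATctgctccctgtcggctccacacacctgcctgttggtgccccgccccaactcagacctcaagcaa
Wnt11: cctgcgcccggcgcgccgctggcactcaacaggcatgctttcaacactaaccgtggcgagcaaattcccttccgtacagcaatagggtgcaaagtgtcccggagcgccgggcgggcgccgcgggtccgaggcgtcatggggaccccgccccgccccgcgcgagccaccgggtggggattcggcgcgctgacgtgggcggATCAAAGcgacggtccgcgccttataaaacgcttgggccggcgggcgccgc
Axin2: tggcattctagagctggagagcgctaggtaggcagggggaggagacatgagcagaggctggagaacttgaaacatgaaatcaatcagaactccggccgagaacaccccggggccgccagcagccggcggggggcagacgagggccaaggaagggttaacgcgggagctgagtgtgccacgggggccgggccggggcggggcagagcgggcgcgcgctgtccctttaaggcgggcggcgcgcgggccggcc
The copies begin 117 and 98 bases before the start in Dkk1, 71 bases before it in Wnt5b and 51 bases before it in Wnt11, where the match is on the other strand. A match of 7 letters is a description of the sequence and not a site of binding.

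Positive and negative cells were compared as the mean of the 3 vectors, each set against the negative cells of the same vector. Of the 40 tested members, 26 passed the threshold of an adjusted p under 0.05 in edgeR's quasi-likelihood test, where 33.6% of all tested genes did. In positive cells 8 members were higher, as were 17.6% of all genes, and 18 were lower, as were 16%. The 8 include Wnt2 and the 18 include Rnf43, each tested only through the fraction where it was the higher. The median log2 fold change was -0.28 over the 40 members and -0.03 over all genes. By role, the median was -0.27 for the ligands, -0.22 for the receptors, -0.56 for the R-spondin axis, -0.65 for the 3 feedback genes and 0.32 for the antagonists. In 6 members, Wnt2 among them, the 9 positive libraries lay wholly above the 9 negative ones, as did 6.65% of all genes. In 4 members the positive libraries lay wholly below, as did 2.06% of all genes. No such share was taken for the counts of cultures given below. In these bulk libraries, fewer cells of a type and less RNA per cell cannot be told apart.

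**Figure D1:**
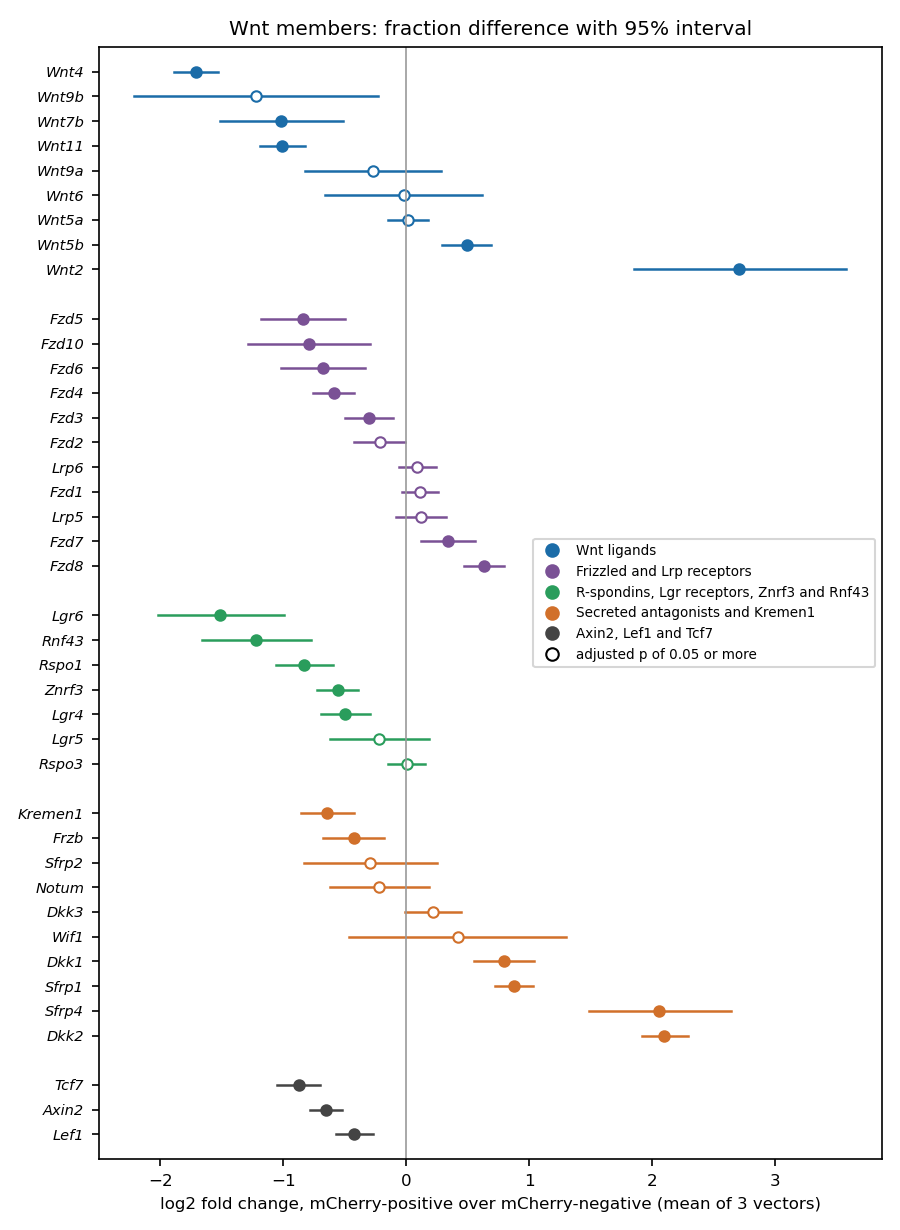
Log2 fold change of each of the 40 tested members between mCherry-positive and mCherry-negative cells (x axis, mean of the 3 vectors, positive values are higher in positive cells), grouped and coloured by role, with 95% intervals from the edgeR fit. Filled points passed an adjusted p of 0.05. Wnt4 (-1.71) and Wnt11 (-1.01) lie to the left, while Wnt2 (2.71), Dkk2 (2.1) and Sfrp4 (2.06) lie furthest to the right.

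Among the ligands, Wnt4 was lower in positive cells. It ranged from 90.3 to 125 CPM (median 109.7) in the 9 positive libraries and from 278.3 to 437.3 CPM (median 340.3) in the 9 negative ones. The ranges did not overlap, and the log2 fold change was -1.71 ± 0.09 (SE), 3.27-fold lower, with an adjusted p of 5.12e-11 by edgeR. Wnt11, the ureteric tip ligand, ranged from 10.4 to 15.4 CPM (median 13.8) in positive and from 22.1 to 32.6 CPM (median 24.6) in negative libraries. Again no positive library reached a negative one, and the gene was 2.01-fold lower (log2 -1.01 ± 0.09, adjusted p = 5.83e-08 by edgeR). Wnt7b was at 0.634 to 3.02 CPM (median 1.60) in positive and 2.21 to 4.73 CPM (median 2.87) in negative libraries. The ranges overlapped through the scramble-shRNA library of litter 1, the only culture of 9 in which the positive value was the higher, and Wnt7b was 2.02-fold lower on average (adjusted p = 0.00258 by edgeR).

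Wnt9b was scarce. It held 0 to 11 counts in a positive library and 1 to 22 in a negative one, or 0 to 1.30 CPM (median 0.311) against 0.221 to 2.08 CPM (median 1.324). The positive value was the lower in all 9 cultures, but the log2 fold change of -1.22 ± 0.47 missed the threshold (adjusted p = 0.054 by edgeR). With the litter as a replicate block it passed, at -1.23 with an adjusted p of 0.00634. Wnt9b reached the level needed for testing, about 1.3 CPM, in 5 negative libraries and in no positive one, so it entered the test only through the fraction where it is the higher.

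2 ligands were higher in positive cells. Wnt2, best known for its part with Wnt2b in specifying the mouse lung, ranged from 0.799 to 3.57 CPM (median 2.26) in positive and from 0 to 0.664 CPM (median 0.329) in negative libraries. The ranges did not overlap, although these are 4 to 28 counts against 0 to 7, and the fitted log2 fold change was 2.71 ± 0.41 (adjusted p = 4.23e-05 by edgeR). Wnt2 was tested only because 6 positive libraries reached the needed level, and no negative one did. Wnt5b, a noncanonical ligand related to Wnt5a, ranged from 14.2 to 21.1 CPM (median 17.8) in positive and from 9.52 to 14.4 CPM (median 11.8) in negative libraries. Its ranges overlapped slightly, the positive value was the higher in all 9 cultures, and it was 1.41-fold higher (log2 0.49 ± 0.09, adjusted p = 0.000441 by edgeR).

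Wnt5a, the noncanonical ligand of mesenchyme, was at 95.7 to 141.9 CPM in positive and 99.0 to 123.6 CPM in negative libraries. Its log2 fold change was 0.02, with a 95% interval of -0.15 to 0.18 (adjusted p = 0.892 by edgeR), so an average difference beyond this interval was not seen. Wnt6 (log2 -0.02, interval -0.66 to 0.62) and Wnt9a (log2 -0.27, interval -0.83 to 0.29) were near the level needed for testing and gave wide intervals. The other 10 ligands were not tested. Wnt3a had no count in any library, where 3 counts would be 0.246 to 0.961 CPM depending on the library's depth. Wnt1, Wnt10a, Wnt10b, Wnt16, Wnt2b, Wnt3, Wnt7a, Wnt8a and Wnt8b had few counts, at most 1.83 CPM in any library.

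**Figure D2:**
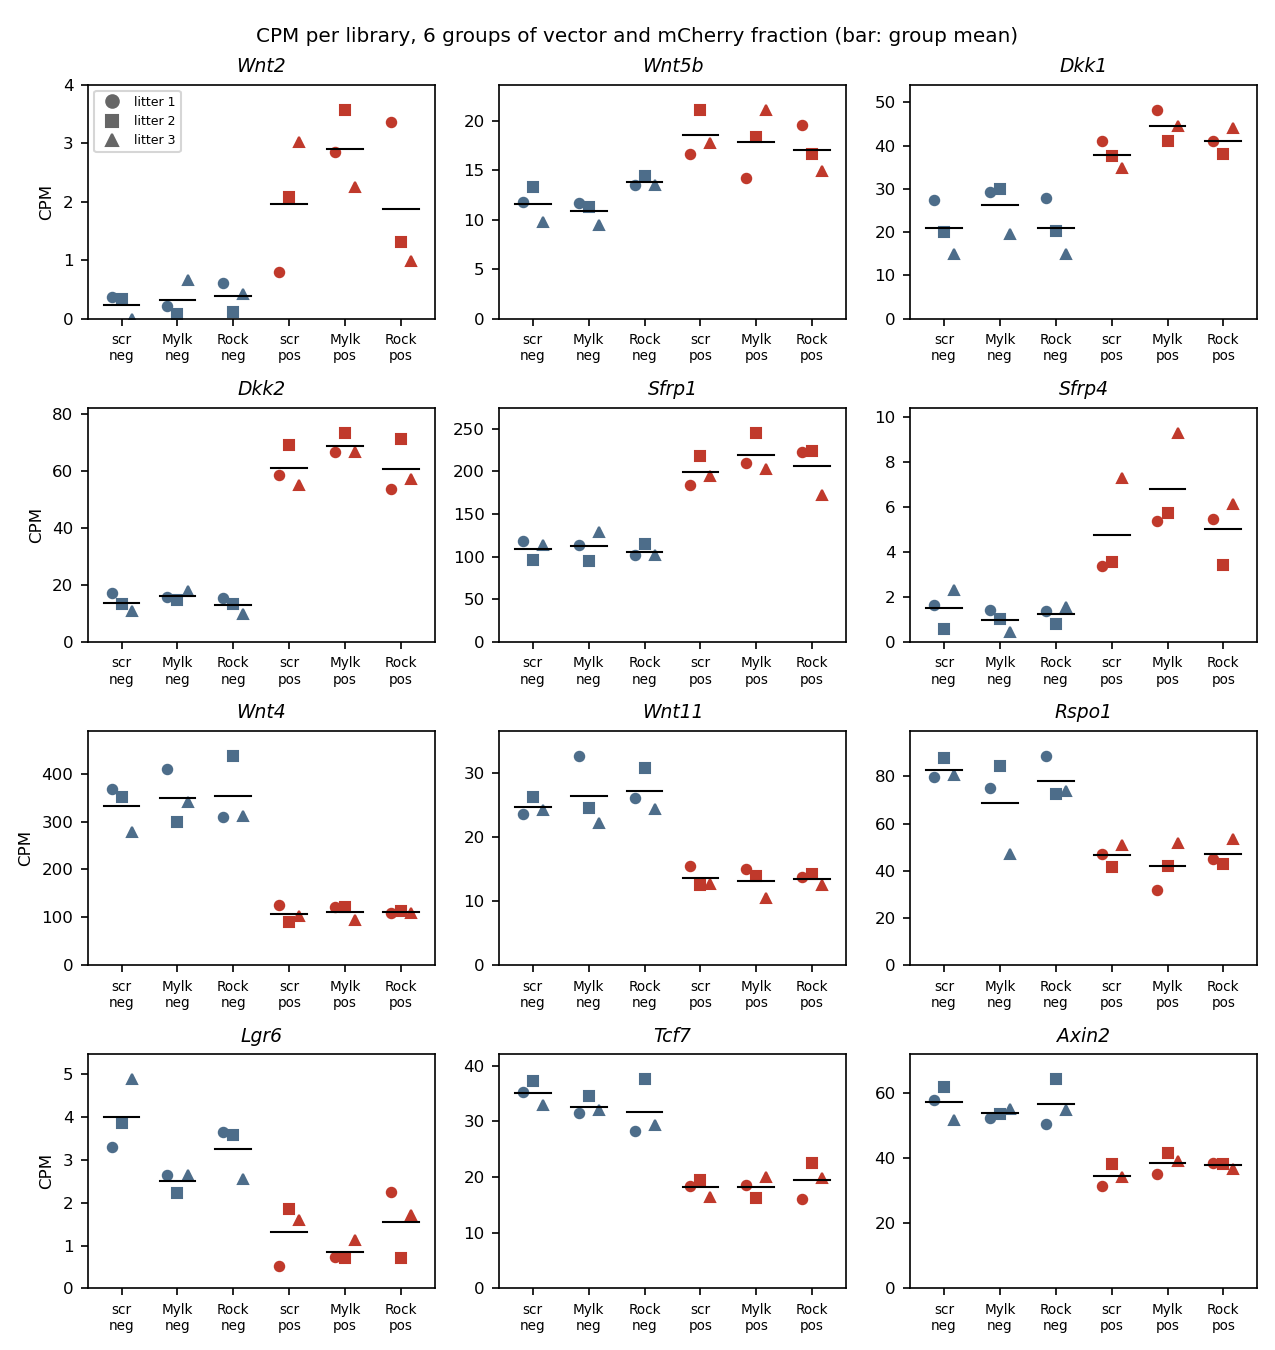
CPM in each of the 18 libraries for 12 members, by group of vector (scr, scramble-shRNA; Mylk, Mylk-shRNA; Rock, Rock1/2-shRNA) and fraction (neg and pos, mCherry-negative and mCherry-positive), with symbols for the 3 litters and bars at group means. Each y axis starts at 0. Wnt2, Dkk1, Dkk2, Sfrp1 and Sfrp4 lie higher in all positive libraries, and Wnt4, Wnt11, Tcf7 and Axin2 lie lower in all of them, while Wnt5b, Rspo1 and Lgr6 overlap.

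Among the 11 tested receptors, 2 Frizzled genes were higher and 5 were lower in positive cells. Over all tested genes 17.6% were higher and 16% lower. Fzd8 ranged from 13.95 to 21.4 CPM (median 17.2) in positive and from 9.83 to 11.8 CPM (median 11.1) in negative libraries. The ranges did not overlap, and Fzd8 was 1.55-fold higher (log2 0.63 ± 0.08, adjusted p = 3.58e-06 by edgeR). Fzd4, which also binds the ligand norrin, ranged from 32.7 to 54.1 CPM (median 44.4) in positive and from 50.9 to 68.2 CPM (median 61.5) in negative libraries. The positive value was the lower in all 9 cultures, by 1.5-fold on average (adjusted p = 9.6e-06 by edgeR). Fzd5 was at 1.41 to 4.12 CPM (median 2.69) in positive and 2.83 to 5.65 CPM (median 4.87) in negative libraries, and Fzd6 at 4.76 to 7.05 CPM (median 5.50) and 4.87 to 12.01 CPM (median 9.22). Both overlapped and were lower in 8 of 9 cultures, Fzd5 by 1.79-fold (adjusted p = 0.000503 by edgeR) and Fzd6 by 1.60-fold (adjusted p = 0.0032 by edgeR).

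Among the other receptors, Fzd7 was 1.27-fold higher (adjusted p = 0.0155 by edgeR), Fzd10 was 1.73-fold lower (adjusted p = 0.0145) and Fzd3 was 1.23-fold lower (adjusted p = 0.0161). For the co-receptors, Lrp5 had a log2 fold change of 0.12 (interval -0.08 to 0.33) and Lrp6 one of 0.09 (interval -0.06 to 0.24), and neither passed. Fzd1 had a log2 fold change of 0.11 (adjusted p = 0.23 by edgeR). Fzd2 had one of -0.22 (adjusted p = 0.105 by edgeR), which passed with the litter as a replicate block (-0.21, adjusted p = 0.00283) and without litter 3 (-0.27, adjusted p = 0.00376). Fzd9, the receptor that was not tested, held 0 to 1.60 CPM.

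In the R-spondin axis 5 of 7 tested members were lower in positive cells, as were 16% of all genes, and none was higher. Rnf43 is 1 of the 5, although it entered the test only through the negative libraries. Rspo1, an R-spondin that amplifies Wnt responses, ranged from 31.7 to 53.6 CPM (median 44.9) in positive and from 47.2 to 88.6 CPM (median 79.7) in negative libraries. The overlap came from the negative Mylk-shRNA library of litter 3 at 47.2 CPM, and Rspo1 was 1.78-fold lower (log2 -0.83 ± 0.11, adjusted p = 1.22e-05 by edgeR). Rspo3, its close relative, was at 38.9 to 48.5 CPM in positive and 29.4 to 44.9 CPM in negative libraries, with a log2 fold change of 0.00 and an interval of -0.15 to 0.16 (adjusted p = 0.973 by edgeR). The R-spondin receptor Lgr6 was at 0.533 to 2.24 CPM (median 1.13) in positive and 2.24 to 4.88 CPM (median 3.30) in negative libraries. It was the lower in all 9 cultures, with a log2 fold change of -1.51 ± 0.24 (adjusted p = 8.38e-05 by edgeR). Lgr4 was 1.41-fold lower (adjusted p = 0.000457 by edgeR), and Lgr5 did not pass (log2 -0.22, interval -0.62 to 0.18).

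Of the 2 ligases that remove Frizzled, both had the lower value in positive cells in 9 of 9 cultures. Znrf3 ranged from 8.56 to 14.9 CPM (median 11.8) in positive and from 13.8 to 19.1 CPM (median 16.6) in negative libraries, and was 1.47-fold lower (log2 -0.56 ± 0.08, adjusted p = 2.01e-05 by edgeR). Rnf43 ranged from 0.490 to 1.90 CPM (median 1.18) in positive and from 1.28 to 3.71 CPM (median 2.66) in negative libraries, and was 2.33-fold lower (log2 -1.22 ± 0.21, adjusted p = 0.000175 by edgeR). Both ranges overlapped. Rnf43 rested on 2 to 12 counts in a positive library and 9 to 42 in a negative one. It reached the level needed for testing in 8 negative and 2 positive libraries, where 3 are needed. Like Wnt9b it entered the test only through the fraction where it is the higher, so its call is no support for a difference in this role. Rspo2 and Rspo4 were not tested, with at most 0.473 CPM in any library.

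Among the antagonists 4 of 10 tested members were higher in positive cells, as were 17.6% of all genes, and 2 were lower, as were 16%. Dkk2, a dickkopf protein that binds Lrp5 and Lrp6, ranged from 53.8 to 73.4 CPM (median 66.5) in positive and from 9.90 to 17.9 CPM (median 14.7) in negative libraries. Nothing overlapped, and Dkk2 was 4.30-fold higher (log2 2.1 ± 0.09, adjusted p = 4.8e-12 by edgeR), the smallest p among the members. Sfrp1, a secreted Frizzled-like protein that binds Wnts, ranged from 171.8 to 245.3 CPM (median 210.0) in positive and from 95.3 to 129.3 CPM (median 113.1) in negative libraries. It was 1.83-fold higher without overlap (log2 0.88 ± 0.07, adjusted p = 2.55e-08 by edgeR). Its relative Sfrp4 ranged from 3.37 to 9.30 CPM (median 5.45) in positive and from 0.443 to 2.31 CPM (median 1.39) in negative libraries, and was 4.18-fold higher (log2 2.06 ± 0.27, adjusted p = 8.78e-06 by edgeR). Dkk1, the founding Lrp-binding antagonist and itself a target of beta-catenin, ranged from 34.9 to 48.3 CPM (median 41.0) in positive and from 14.9 to 29.9 CPM (median 20.2) in negative libraries. It was 1.73-fold higher, again without overlap (log2 0.80 ± 0.12, adjusted p = 3.03e-05 by edgeR).

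The 2 members of this role that were lower were Kremen1 and Frzb. Kremen1 is a Dkk receptor that helps remove Lrp6 from the membrane, and it ranged from 22.3 to 36.9 CPM (median 30.7) in positive and from 34.8 to 55.1 CPM (median 43.1) in negative libraries. The positive value was the lower in all 9 cultures, by 1.56-fold (adjusted p = 6.7e-05 by edgeR). Frzb, a further secreted Frizzled-like protein, was 1.34-fold lower (adjusted p = 0.00927 by edgeR) in 8 of 9 cultures. Dkk3 (log2 0.22, adjusted p = 0.134) and Sfrp2 (log2 -0.29, adjusted p = 0.413) did not pass by edgeR. Without litter 3 both passed, Dkk3 at 0.37 (adjusted p = 0.0137) and Sfrp2 at -0.48 (adjusted p = 0.000504). Notum, the enzyme that removes the lipid from Wnts, had a log2 fold change of -0.22 (interval -0.62 to 0.19) and Wif1 one of 0.42 (interval -0.46 to 1.30). Wif1 reached the level needed for testing in 3 positive and 1 negative libraries. Dkk4 had no count, and Kremen2 and Sfrp5 were not tested, with at most 0.641 CPM in any library.

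All 3 feedback and transcription factor genes were lower in positive cells, as were 16% of all genes. Each was lower in 9 of 9 cultures, a count for which no share over all genes was taken. Axin2, the scaffold that canonical signalling induces to limit itself, ranged from 31.4 to 41.5 CPM (median 38.2) in positive and from 50.5 to 64.2 CPM (median 54.9) in negative libraries. It was 1.57-fold lower without overlap (log2 -0.65 ± 0.06, adjusted p = 1.75e-07 by edgeR). Tcf7 ranged from 16.0 to 22.6 CPM (median 18.5) in positive and from 28.4 to 37.6 CPM (median 32.9) in negative libraries, 1.83-fold lower and without overlap (log2 -0.87 ± 0.08, adjusted p = 1.35e-07 by edgeR). Lef1 ranged from 42.0 to 59.8 CPM (median 53.3) in positive and from 59.4 to 75.5 CPM (median 68.7) in negative libraries. The ranges met at 59.4 to 59.8 CPM, and Lef1 was 1.34-fold lower (log2 -0.42 ± 0.07, adjusted p = 0.000144 by edgeR).

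A list of 18 other known or reported targets of beta-catenin was set beside these 3. Of its 16 tested genes, 12 were lower in positive cells, as were 16% of all genes, and 1, Bambi, was higher, as were 17.6%. The median log2 fold change was -0.72, against -0.03 over all genes. Dkk1, described above as a target of beta-catenin, is not in this list and not in these counts. It went the other way from the 12 lower genes, at 34.9 to 48.3 CPM in positive and 14.9 to 29.9 CPM in negative libraries. Bambi is thus not the only named target that was higher in positive cells. Ccnd1, which encodes cyclin D1, was at 195.1 ± 21.1 CPM (SD, n = 9) in positive and 423.8 ± 100 CPM in negative libraries (log2 -1.17 ± 0.11 SE, adjusted p = 2.25e-07 by edgeR). Myc was at 107.8 ± 16.7 and 182.3 ± 24.9 CPM (adjusted p = 1.65e-06 by edgeR). Tnfrsf19 was 2.31-fold lower and Tbx3 1.55-fold lower. Bambi, a decoy receptor for TGF-beta family ligands, was 1.26-fold higher (adjusted p = 0.000454 by edgeR). The list's summed level was the lower in the positive library of all 9 cultures, at 1156 to 1419 CPM against 1403 to 1772 CPM. Ccnd1 is also a marker of early nephrons, so this list and that one share a gene. Bambi and Apcdd1 are also in the list of other extracellular regulators below, and are counted in both.

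Of 21 tested genes for beta-catenin, its destruction complex and other cytoplasmic parts of the pathway, 2 were higher in positive cells and 3 lower. Over all tested genes 17.6% were higher and 16% lower. Beta-catenin itself, Ctnnb1, had a log2 fold change of 0.07 (interval -0.09 to 0.22). The smallest p among the 5 that passed was that of Csnk1e, a casein kinase, at -0.40 ± 0.06 (adjusted p = 4.09e-05 by edgeR). Among 14 nuclear effectors 2 were higher and 4 lower, with the coactivator Bcl9l at 0.37, the corepressor Tle1 at 0.23 and the transcription factor Tcf7l2 at -0.26 on the log2 scale. Of 7 genes for Wnt secretion, the proton pump accessory Atp6ap2 was 1.41-fold higher, and Porcn, which attaches the lipid, was 1.31-fold lower, as was Tmed2 by 1.19-fold. Wls, the carrier of Wnts to the surface, did not pass (log2 0.22, adjusted p = 0.0615 by edgeR).

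Genes of planar polarity and noncanonical signalling went both ways, with 6 of 20 tested genes higher and 3 lower. Over all tested genes 17.6% were higher and 16% lower, the shares to set beside this list and the next. Daam2, a formin that acts below Dishevelled, was at 31.3 ± 4.63 CPM (SD, n = 9) in positive and 15.2 ± 3.30 CPM in negative libraries (2.01-fold, adjusted p = 1.12e-06 by edgeR). Prickle2 was 1.75-fold higher (adjusted p = 3.08e-07). The atypical cadherin genes Celsr1 and Celsr2 were lower by 2.21-fold and 2.15-fold (adjusted p = 6.12e-06 and 1.89e-06 by edgeR). Among 19 tested genes for other extracellular regulators, 6 were higher and 3 lower. Sulf1, which trims heparan sulfate and alters how Wnts bind it, was at 30.3 ± 5.96 CPM in positive and 9.36 ± 3.23 CPM in negative libraries, 3.00-fold apart (adjusted p = 1.42e-06 by edgeR). Ndp, which encodes norrin, a ligand of Fzd4, was 2.71-fold higher. Reck, a partner of Wnt7 signalling, was 1.39-fold higher, and Tpbg, a membrane inhibitor of Wnt responses, was 1.69-fold lower (adjusted p = 6.95e-06 by edgeR).

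Markers of cell types moved with these differences between the fractions. All 13 tested early nephron markers were lower in positive cells, with a median log2 of -2.02. Their summed level was 291.8 to 387.8 CPM in positive and 537.1 to 1115 CPM in negative libraries. Also lower were 11 of 14 markers of nephron progenitors, 8 of 10 of the ureteric tip and 10 of 13 of the trunk and collecting duct. Higher instead were Gdnf of the progenitor list (1.24-fold), Adamts18 of the tip list (2.54-fold) and Gata2 of the trunk list (1.94-fold). Over all tested genes 16% were lower and 17.6% higher. The tip list summed to 281 to 340.8 against 308.9 to 469.2 CPM and the trunk list to 105.3 to 162.5 against 163.3 to 283.9 CPM. Lhx1, an early nephron factor, was at 5.50 ± 2.22 against 36.9 ± 17.8 CPM (SD, n = 9), and Ret, the receptor of the bud tip, at 1.2 ± 0.624 against 3.29 ± 0.762 CPM. In the other direction, 16 of 18 stroma markers were higher (summed level 8161 to 11960 against 5603 to 6423 CPM). So were 11 of 13 for smooth muscle (547 to 1276 against 310.1 to 467.4 CPM) and 12 of 12 for macrophages (272.3 to 574.9 against 8.96 to 19.9 CPM). Alx1 of the stroma list was 1.87-fold lower, and Des of the smooth muscle list was 1.31-fold lower. Foxd1, the factor of the cortical stroma, was at 326.9 ± 70.2 against 116.4 ± 16.3 CPM. No listed marker of these 7 types was at 0 throughout a fraction. Their part in the differences of the Wnt genes was not tested.

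Of the remaining lists, 10 of 14 endothelial markers were lower and 2 higher (195.3 to 348.2 against 286.8 to 523.8 CPM), and 5 of 7 tested erythroid markers were higher (341.1 to 3021 against 78.7 to 365.9 CPM). Podocyte markers were split, with 2 of 7 higher and 3 lower, and 2 of 11 proximal tubule markers were lower. The shares over all tested genes were 17.6% higher and 16% lower. The mesothelial list had 1 of 3 tested genes lower and the neural and Schwann list 1 higher and 1 lower of 3. For dissociation stress, 2 of 12 genes were lower, and the summed level spread from 794.7 to 4752 CPM over the 18 libraries.

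The fraction difference was also read within each vector, on 3 against 3 libraries. With scramble-shRNA 18 members passed (12.3% of all genes did), 7 higher (7.43% of all genes) and 11 lower (4.85%). With Mylk-shRNA it was again 18 members (13.2% of all genes), 7 higher (8.07%) and 11 lower (5.14%). With Rock1/2-shRNA 12 members passed (11.2% of all genes), 5 higher (6.94%) and 7 lower (4.3%). With the litter as a replicate block the counts were 22 with scramble-shRNA, 23 with Mylk-shRNA and 23 with Rock1/2-shRNA. Calls over all 16544 genes rose as well, to 3848, 4019 and 3369 in the same order. The lower count of members with Rock1/2-shRNA was thus not seen in the paired fit of all litters. It was seen in the paired fit of litters 1 and 2, at 25, 23 and 18 in the same order. There 3450, 3708 and 2582 of all 16660 tested genes passed. Without litter 3 and without the block the counts were 24, 19 and 16, which held 17, 14 and 12 of the members called with all litters. Over all 16660 tested genes, 2776, 2944 and 2013 passed in that setting. In the fit of all litters without the block, 11 members passed with every vector, as did 7.51% of all genes. Of the 11, 5 were higher (Dkk1, Dkk2, Sfrp1, Sfrp4 and Fzd8) and 6 lower (Wnt4, Wnt11, Fzd4, Rspo1, Axin2 and Tcf7). In the fit of all litters with the replicate block 16 members passed with every vector, these 11 and Wnt2, Lgr6, Rnf43, Kremen1 and Lef1. The share of all genes passing with every vector was not computed for that fit, so the rise from 11 cannot be weighed against it. Wnt2 and Rnf43 again entered the test only through the fraction where each was the higher.

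**Figure D3:**
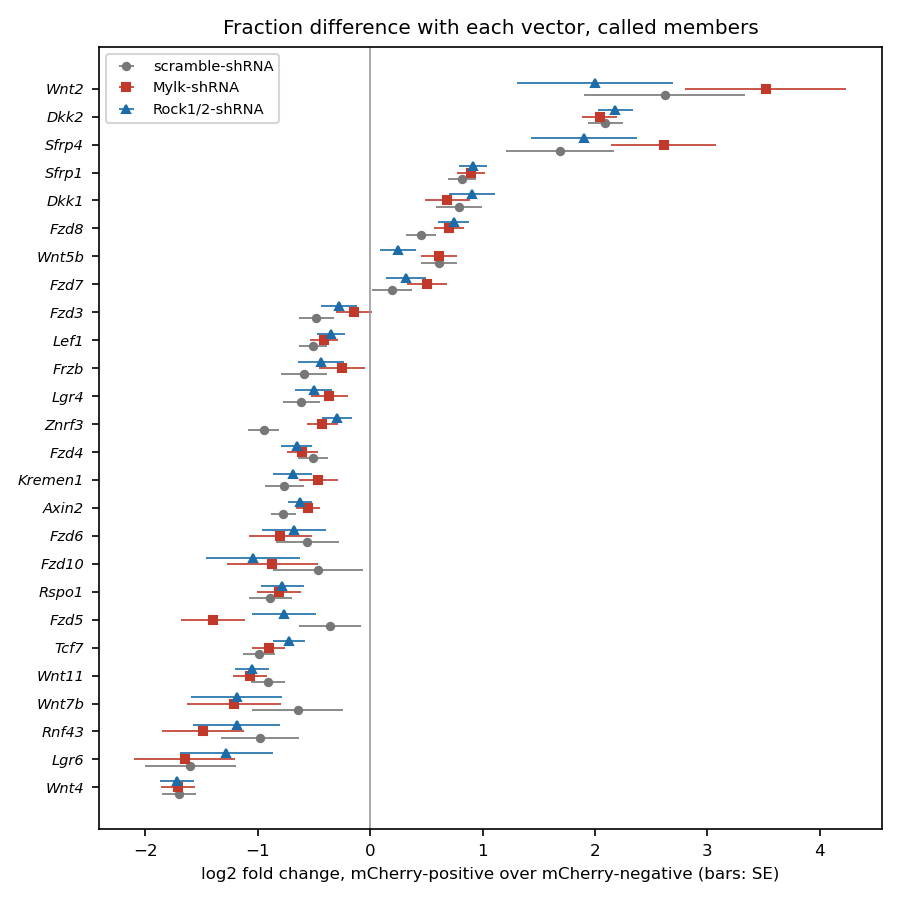
Log2 fold change between mCherry-positive and mCherry-negative cells (x axis) of the 26 members called in the mean of the vectors, given for each vector on 3 against 3 libraries with bars of 1 SE. The genes were chosen by the mean of these 3 estimates, so the side of 0 on which they lie is largely set by that choice. Wnt4 is at -1.70, -1.71 and -1.72 with scramble-shRNA, Mylk-shRNA and Rock1/2-shRNA, while Znrf3 is spread from -0.95 to -0.30.

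The spread between vectors varied by gene. Wnt4 had a log2 fold change of -1.70 with scramble-shRNA, -1.71 with Mylk-shRNA and -1.72 with Rock1/2-shRNA, each with an SE of 0.15. Dkk2 had 2.09, 2.04 and 2.18 in that order, and Sfrp1 0.82, 0.89 and 0.91. Others were spread more widely, among them Znrf3 (-0.95, -0.43 and -0.30), Fzd5 (-0.36, -1.40 and -0.77) and Wnt2 (2.62, 3.52 and 2.00). Whether the fraction difference with a knockdown vector differed from that with scramble-shRNA was tested as an interaction, and no gene passed for either vector (0% of all genes, smallest adjusted p of a member 1 by edgeR). At an unadjusted p under 0.05, 2 members stood for Mylk-shRNA (1.31% of all genes), Znrf3 and Fzd5, and 1 for Rock1/2-shRNA (0.876% of all genes), Znrf3. The interactions share the scramble-shRNA libraries, so they are not independent of each other.

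The vectors were then compared within a fraction, which asks whether vectors against actomyosin kinases changed the Wnt genes. No member and no other gene passed in any of the 6 comparisons (0% of all genes, adjusted p = 1 by edgeR for every member, n = 3 a group), nor did any by DESeq2. In the positive fraction an unadjusted p under 0.05 was reached by 1 member for Mylk-shRNA against scramble-shRNA (Fzd5, where 1.56% of all genes reached it), by 1 for Rock1/2-shRNA against scramble-shRNA (Znrf3, 0.876%) and by 1 for Mylk-shRNA against Rock1/2-shRNA (Znrf3, 1.2%). In the negative fraction it was reached by 1 member for Mylk-shRNA against scramble-shRNA (Znrf3, 1.72%) and by none for Rock1/2-shRNA against scramble-shRNA (1.21%) or Mylk-shRNA against Rock1/2-shRNA (0.731%). With DESeq2's test the counts of members in these 6 comparisons were 1, 1, 0, 0, 0 and 0 in the same order. Over all genes they were 154, 79, 100, 219, 152 and 71. With the litter as a replicate block the members numbered 2, 1, 0, 4, 0 and 3. Over all 16544 genes the block gave 663, 352, 477, 1050, 644 and 534.

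Znrf3 in positive cells was at 9.41, 10.8 and 8.56 CPM with scramble-shRNA, at 13.5, 14.1 and 14.9 CPM with Rock1/2-shRNA, and at 11.8, 13.6 and 9.30 CPM with Mylk-shRNA, in the order of litters 1, 2 and 3. All Rock1/2-shRNA values lay above all scramble-shRNA values, while Mylk-shRNA overlapped the latter. The log2 fold change to scramble-shRNA was 0.54 ± 0.15 for Rock1/2-shRNA (unadjusted p = 0.00152, adjusted p = 1 by edgeR) and 0.24 ± 0.15 for Mylk-shRNA. In negative cells Znrf3 was at 17.7, 19.1 and 17.7 CPM with scramble-shRNA, 16.6, 18.3 and 15.7 CPM with Rock1/2-shRNA and 14.9, 13.8 and 16.4 CPM with Mylk-shRNA. There the Mylk-shRNA values lay below the scramble-shRNA ones (log2 -0.29 ± 0.13, unadjusted p = 0.0397, adjusted p = 1 by edgeR). Axin2, also a target of canonical signalling, had log2 fold changes of 0.12 with either knockdown vector in positive cells (intervals -0.11 to 0.36 for each).

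Fzd5 in positive cells was at 2.84, 3.93 and 4.12 CPM with scramble-shRNA and at 2.69, 1.67 and 1.41 CPM with Mylk-shRNA, which are 16, 32 and 13 counts against 26, 7 and 5. The Mylk-shRNA values were all the lower, with a log2 fold change of -0.81 ± 0.31 (unadjusted p = 0.0162, adjusted p = 1 by edgeR). With Rock1/2-shRNA Fzd5 was at 2.88, 2.60 and 2.45 CPM, overlapping scramble-shRNA.

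**Figure D4:**
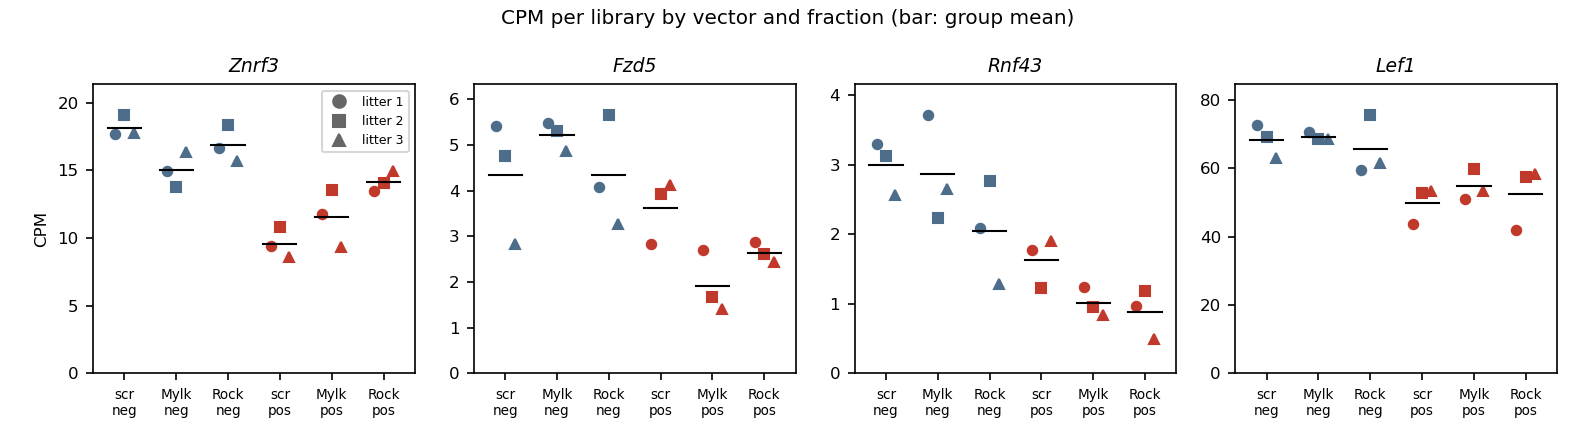
CPM in each library of Znrf3, Fzd5, Rnf43 and Lef1 by group of vector (scr, scramble-shRNA; Mylk, Mylk-shRNA; Rock, Rock1/2-shRNA) and fraction (neg and pos, mCherry-negative and mCherry-positive), with symbols for the litters and bars at group means. In positive cells Znrf3 lies at 13.5 to 14.9 CPM with Rock1/2-shRNA and at 8.56 to 10.8 CPM with scramble-shRNA. No difference between vectors in any panel passed the adjusted test.

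The size of change that these comparisons leave room for, in the fit without a litter term, differed by member. In the positive fraction, set against the control vector, the 95% interval of the fold change lay within 2-fold either way for 27 of 40 members with Mylk-shRNA and 29 with Rock1/2-shRNA, and within 1.5-fold for 20 and 22. In the negative fraction it lay within 2-fold for 32 and 31 members. For Wnt4 the positive-fraction intervals were -0.26 to 0.37 with Mylk-shRNA and -0.25 to 0.37 with Rock1/2-shRNA on the log2 scale, and for Lef1 -0.16 to 0.38 and -0.18 to 0.36. For the scarce ligand Wnt7b they were -1.40 to 0.53 and -1.20 to 0.71, which take in a fall of 2-fold but not a rise of 2-fold. Y-linked transcripts summed to 22.6 to 179 CPM in the Rock1/2-shRNA libraries and 73.9 to 156.7 CPM in the others. Neither the cause of this difference nor its part in the vector comparisons was tested.

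Levels also varied between litters within a group. The coefficient of variation over the 3 libraries of a group, taken as the median over the 6 groups, ran from 7.15% for Fzd8 to 81.1% among the 40 members, with a median of 15.9%. For 5 members litter 3 gave the lowest of the 3 values in all 6 groups, namely Fzd1, Fzd2, Fzd7, Kremen1 and Sfrp2. The share of all tested genes with this order was not computed, so it is not shown to be particular to these members. Sfrp2 was at 33.4 to 69.8 CPM in the litter 3 libraries and at 72.9 to 127.2 CPM in those of litters 1 and 2. Litter 3 also had the higher mitochondrial share, and its part in these levels was not tested.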

How the data were processed

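The deposited table gave, for each library, estimated counts per gene and CPM, both made by the authors. Per the submitters' processing notes the tools were fastp 0.24.0, FastQC 0.12.1, STAR 2.7.11, SAMtools 1.22.1, featureCounts in Subread 2.1.1 and MultiQC 1.32, and the build was GRCm39. For the roles and order of these tools, and for strand, nothing was found in the labels or the file. Per the labels' protocols, mRNA was captured and libraries were made by tagmentation. The deposited CPM equalled the deposited estimated count divided by its library total and scaled to 1000000.

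The 92 spike-in rows were left out, and 21909 of the remaining 78317 genes had no symbol. Estimated counts were rounded to whole numbers and tested with edgeR 4.0.16 in R 4.3.3 (TMM scaling, quasi-likelihood test with robust settings, 1 mean per group over 18 libraries, Benjamini-Hochberg adjustment over 16544 genes per comparison, threshold 0.05). Genes were kept by filterByExpr with a minimum count of 10 and a minimum total of 15, about 1.3 CPM in 3 libraries. The common biological coefficient of variation was 0.165. The procedure was tested on simulated data.

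Replicate numbers are litters per the labels and so pair the samples. The main fit held no litter term, so its p-values, SEs and intervals leave this pairing out. With the litter as a replicate block the common biological coefficient of variation was 0.0987. Deviations from group means correlated at 0.2446 to 0.6818 between libraries of the same litter (45 pairs) and at -0.5776 to 0.326 between libraries differing in litter and group (90 pairs). Libraries of a group differed beyond sampling noise in all 18 pairs. Alternatives were DESeq2 1.42.0 size factors and test, no filter, a replicate block, the compared groups alone, leaving out each library, and leaving out litter 3.

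The members and gene lists were chosen with earlier results of these data known. Values by fraction are given for up to 4 members of each role with the smallest p between fractions, for members with an unadjusted p under 0.05 between vectors, and for 7 kidney Wnt genes. The other lists name up to 4 called genes with the smallest p, and a few markers and pathway genes were named after their values were seen. Promoters are from RefSeq on GRCm38.p6, another build than the counts use.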

Additional observations from a re-analysis of the deposited data

How the results depend on the processing

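The same 26 members passed between fractions, as the mean of the vectors, under all 24 alternatives run for this comparison, and 26 to 30 members passed. Over all genes, 5558 passed in the main fit and 4951 to 7569 under the alternatives. Wnt2 and Rnf43 are among the 26, and in the main fit each was tested only through the fraction where it was the higher. With the litter as a replicate block, 22 members passed with scramble-shRNA instead of 18, 23 with Mylk-shRNA instead of 18 and 23 with Rock1/2-shRNA instead of 12, and the calls over all genes rose from 2032 to 3848 with scramble-shRNA, from 2186 to 4019 with Mylk-shRNA and from 1859 to 3369 with Rock1/2-shRNA. Leaving out 1 library gave 12 to 17, 12 to 19 and 10 to 14 members in the same order. Wnt9b passed without the filter (adjusted p = 0.0099 by edgeR), with the replicate block (0.00634) and without litter 3 (0.0325). In the main fit Wnt9b, too, was tested only through the fraction where it is the higher. No member passed between vectors or as an interaction in any setting. Estimates near 0 changed sign, and the cause was not tested. Between fractions, Rspo3 was at -0.013 without the filter, -0.0034 with the replicate block, -0.12 without litter 3, -0.12 with the block on litters 1 and 2 and -0.00275 by DESeq2's test. Wnt6 was at 0.019 with the block, 0.22 without litter 3 and 0.21 with the block on litters 1 and 2. Wnt4 with Mylk-shRNA against scramble-shRNA in negative cells was at -0.00866 without litter 3 and -0.0136 with the block on litters 1 and 2. Leaving out 1 library, the log2 fold change ran from -0.0442 to 0.0397 for Rspo3, -0.029 to 0.0517 for Wnt5a and -0.15 to 0.10 for Wnt6 between fractions. Against scramble-shRNA, Wnt4 ran from -0.0571 to 0.19 (Mylk-shRNA, positive), -0.0435 to 0.16 (Mylk-shRNA, negative), -0.0524 to 0.19 (Rock1/2-shRNA, positive) and -0.0785 to 0.16 (Rock1/2-shRNA, negative). In negative cells with Rock1/2-shRNA, Axin2 ran from -0.11 to 0.0464 and Fzd5 from -0.25 to 0.10. The median SE of a member was 0.102 between fractions and 0.178 between vectors. Between fractions, Wnt9b, with 0 to 22 counts in a library, had an SE of 0.473.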
